A study of Homo sapiens with 120 samples.

Results

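The comparison is between H1 human embryonic stem cells overexpressing lncPRESS1 and cells carrying the vector, both at the late stage of the overexpression experiment. Its members were taken from the sample titles, and they are 4 of the 120 libraries of the series: late lncPRESS1 replicates a and b, and late vector replicates a and b. H1 (WA01) is an established line, grown in mTeSR Plus, and polyadenylated RNA was sequenced from stranded libraries. The series has 96 libraries of a differentiation experiment on WT, KO and ΔATG cells and 24 libraries of the overexpression experiment, in which 4 constructs (vector, lncPRESS1, lncPRESS1DATG and lncSIRP) were each measured at 3 stages (early, middle and late). From its name, lncPRESS1DATG is the same RNA without a start codon. The nature of lncSIRP, the days of the stages, the delivery of the constructs and the number of clones or pools with each one are not given in the sources at hand, so a construct and the history of the cells that carry it cannot be told apart. The libraries a and b are not stated to be separate cultures. The p-values therefore measure a spread between libraries a and b, pooled over the groups of the fit, which may be technical.

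LNCPRESS1 is a long non-coding RNA gene that is active in pluripotent stem cells and is turned off when they differentiate. Human pluripotent stem cells in culture stand close to the epiblast of the embryo. Nodal and Wnt signals move such cells towards the primitive streak, where EOMES, a T-box transcription factor, starts the programmes of endoderm and mesoderm. The integrated stress response is a separate programme in which the transcription factor ATF4 raises genes of amino acid synthesis and transport when translation initiation is slowed.

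Levels are given as CPM, counts scaled to a common library size, in library a and then library b, with 2 libraries in every group. Fold changes are log2 values ± SE from an edgeR quasi-likelihood test fitted on all 24 overexpression libraries, and a gene is said to rise, fall or change only where its p, adjusted over the 23300 genes tested, was under 0.05. That fit pools the spread between libraries a and b over 12 groups of construct and stage. Over genes with enough counts, the SD of the log2 difference b minus a was 0.42 in late vector and 0.47 in late lncPRESS1. It ran from 0.39 in late lncPRESS1DATG to 0.66 in early lncPRESS1, so the SE and p also carry the spread of groups not compared. The 4 libraries held from 51449427 to 61482225 counts, with 27144 to 27927 genes above 0. An exact permutation test of a single value on 2 libraries against 2 could not have passed, since its smallest p (two-sided) is 0.333.

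LNCPRESS1 RNA was raised in the late lncPRESS1 cells. The gene (ENSG00000232301, a lincRNA of 867 exon bases) lies on the plus strand of chromosome 7, from 101299578 to 101301346 in GRCh38. Its level was 32.9 and 32.6 CPM in late vector and 153 and 151 CPM in late lncPRESS1. The 2 groups did not overlap, and the log2 fold change was 2.22 ± 0.21 (edgeR adjusted p = 2.36e-05). A raised level of this RNA was part of the choice of the late stage, so these values describe that choice. Late lncPRESS1DATG had a like level, 154 and 156 CPM, with a difference of -0.02 (adjusted p = 0.964) from lncPRESS1. Late lncSIRP, at 34.9 and 35.9 CPM, was near the vector, and lncPRESS1 was above it by 2.11 ± 0.21 on the log2 scale (adjusted p = 7.97e-05). Counts do not tell RNA of the construct from RNA of the cells' own gene. Of the neighbouring genes, FIS1, which acts in mitochondrial fission, rose from 51.1 and 52.9 CPM to 68.6 and 71.0 (0.43 ± 0.10, adjusted p = 0.00881), a call lost without vector a or without lncPRESS1 b. EMSLR, the lncRNA gene on the other side (chromosome 7, 101308346 to 101310985), measured 45.9 and 42.1 CPM in vector and 39.0 and 39.9 in lncPRESS1 (-0.16, adjusted p = 0.401).

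At the other stages the labels and the LNCPRESS1 level did not go together in the same way. In the early libraries labelled lncPRESS1 the RNA was at 32.3 and 53.8 CPM against 29 and 30.2 in early vector, while the early libraries labelled lncSIRP had 185 and 133 CPM. In the middle libraries labelled lncPRESS1 it was at 55.1 and 58.6 CPM against 47.8 and 36.3 in middle vector and 13.7 and 13.3 in middle lncSIRP. Middle vector differed from both in POU5F1, with 2194 and 2329 CPM against 258 and 272 in middle lncPRESS1 and 304 and 294 in middle lncSIRP. At this stage LNCPRESS1 was thus above lncSIRP, the construct with the nearer POU5F1 level. The early and middle effects were 0.54 (edgeR adjusted p = 0.311) and 0.44 (adjusted p = 0.0818). The results below therefore rest on the late libraries, and the comparisons with the early and middle ones are given with this limit.

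**Figure D1:**
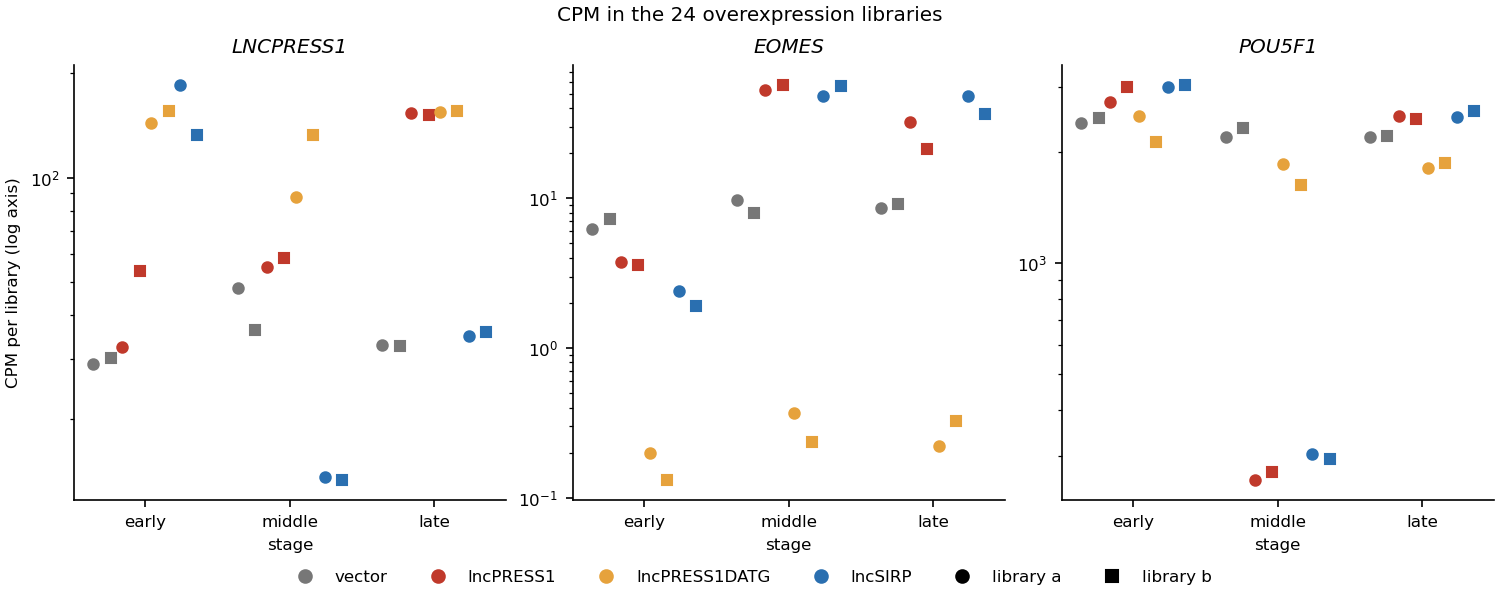
Level of LNCPRESS1, EOMES and POU5F1 (CPM, log axis) in each of the 24 overexpression libraries, by stage and construct; each point is 1 library. At the late stage LNCPRESS1 is high in lncPRESS1 and lncPRESS1DATG, EOMES is above vector in lncPRESS1 and lncSIRP, and POU5F1 stays high in all 4 constructs.

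The late cells of both groups had high RNA of the core pluripotency factors, which was part of the choice of this stage. POU5F1, a core factor of pluripotency, was at 2191 and 2211 CPM in vector and 2505 and 2451 in lncPRESS1 (0.17 ± 0.08, adjusted p = 0.134). SOX2, its partner, measured 233 and 241 CPM against 203 and 260.0 (-0.03 ± 0.14, adjusted p = 0.899), so the groups overlapped. NANOG rose from 334 and 369 CPM to 415 and 432 (0.27 ± 0.08, adjusted p = 0.0218), a call lost without vector a, lncPRESS1 a or lncPRESS1 b and with no filter on low counts. Of the factors that define other cell types, HAND1, of lateral and extra-embryonic mesoderm, was at 0 in both vector libraries and at 0.0529 and 0.0344 CPM in lncPRESS1. CDX2, of caudal and trophoblast cells, was at 0.0721 and 0.0580 CPM in vector and 0.300 and 0.241 in lncPRESS1; it rose (2.01 ± 0.67, adjusted p = 0.0405), but not when any 1 of the 4 libraries was left out or with limma voom. PAX6, of neuroectoderm, measured 0.432 and 0.908 CPM against 1.99 and 1.70 and was not called. In bulk RNA, fewer cells of a type and less RNA per cell cannot be told apart, and the same holds for more.

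Across all genes, 4998 of 23300 were called (21.5%): 2358 were higher (10.1%) and 2640 lower (11.3%) in late lncPRESS1. The falls were the larger changes, since 271 genes rose at least 2-fold (1.16%) and 1241 fell at least 2-fold (5.33%). The median log2 fold change of all tested genes was -0.04. Calls over all genes became fewer whichever 1 of the 4 libraries was left out. Counts of list members given below without 1 library therefore do not stand beside these shares. The number called moved with single libraries: it was 1079 without vector a (424 higher, 655 lower), 3380 without vector b, 3180 without lncPRESS1 a and 1299 without lncPRESS1 b.

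**Figure D2:**
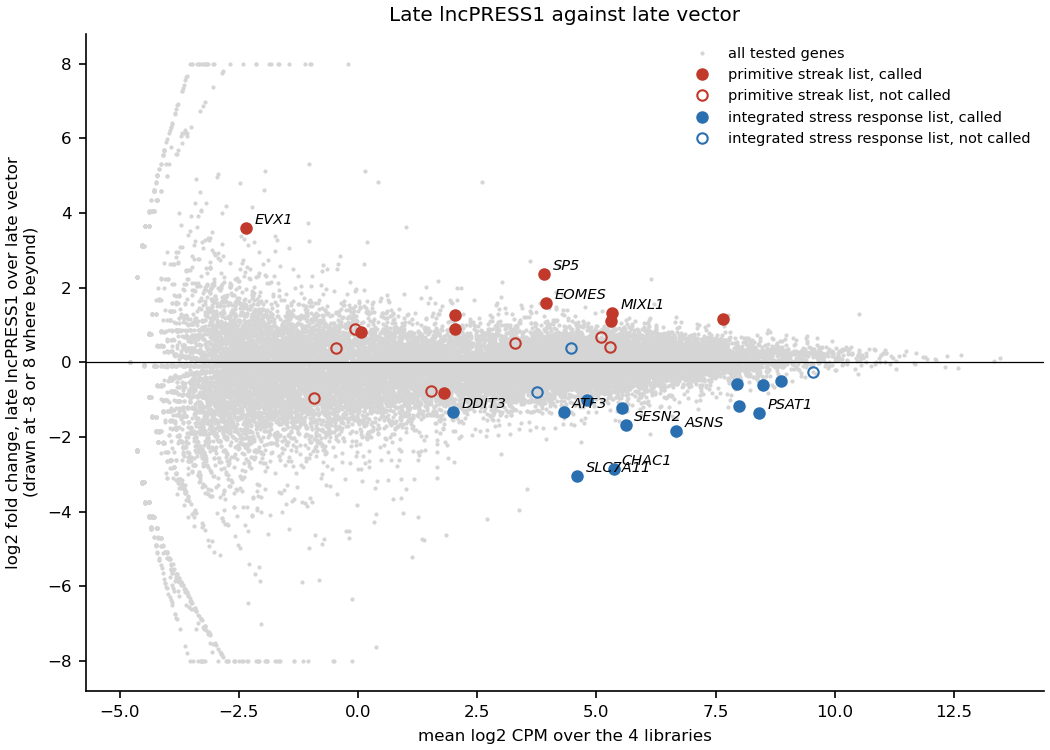
Log2 fold change of late lncPRESS1 over late vector against the mean log2 CPM for all genes tested (grey), with the members of the streak list in red and of the integrated stress response list in blue, filled where called. EOMES and SP5 lie above 0, and CHAC1 and ASNS below it.

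Among called genes whose log2 CPM averaged at least 1, the 12 highest rises held LNCPRESS1 itself and genes of several kinds. PCAT14, a lncRNA transcribed from a retroviral element on chromosome 22, rose from 6.88 and 8.45 CPM to 48.0 and 42.6 (2.56 ± 0.21, adjusted p = 3.11e-06). APCDD1, a Wnt antagonist of the cell membrane, rose from 9.19 and 12 CPM to 36.9 and 37.2 (1.80 ± 0.23, adjusted p = 0.000196). PDE1B, a phosphodiesterase of cyclic nucleotides, rose from 1.60 and 2.94 CPM to 9.16 and 8.99 (2.00 ± 0.30, adjusted p = 0.000595). In all 3 genes both lncPRESS1 libraries were above both vector libraries, and their calls held without any 1 of the 4 libraries. NANOS1, an RNA-binding protein of germ cells, rose too (2.19 ± 0.43, adjusted p = 0.00288), but not without vector a. MYH3 and PRR22 also rose and lost their calls without vector a or without lncPRESS1 b, and EVA1C lost its call without vector a.

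Among the deepest falls, IKZF3 and IER3-AS1 went from a moderate level in vector to near 0 in lncPRESS1, while GRIN1 was still read. IKZF3, a zinc finger factor of lymphoid cells, fell from 19.5 and 8.21 CPM to 0.529 and 0.482 (-4.77 ± 0.77, adjusted p = 0.000907). GRIN1, a subunit of the NMDA glutamate receptor, fell from 42.4 and 38.8 CPM to 2.80 and 2.45 (-3.95 ± 0.65, adjusted p = 0.0011). IER3-AS1, an antisense RNA, fell from 12.6 and 12.6 CPM to 0.370 and 0.310 (-5.21 ± 1.00, adjusted p = 0.00242). The kit keeps strand, but whether strand was used in counting is not stated, so its reads may hold those of the partner gene. HES2, a repressor of the HES family, and SPTSSB, a subunit of serine palmitoyltransferase, fell by 2.80 and 2.57 on the log2 scale. The calls of these 5 genes held without any 1 of the 4 libraries. Those of IZUMO4 (-4.63 ± 1.05, adjusted p = 0.00621) and of VDR, the vitamin D receptor (-3.41 ± 0.85, adjusted p = 0.0102), did not hold without lncPRESS1 a or without lncPRESS1 b, and VDR also lost its call without vector a. GRIN1, IKZF3 and IER3-AS1 were also low in late lncPRESS1DATG (1.5 and 1.04, 1.65 and 1.64, 0.293 and 0.393 CPM) and in late lncSIRP (4.07 and 3.65, 1.02 and 0.312, 0.183 and 0.330 CPM).

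Several primitive streak genes were higher in late lncPRESS1. Of the 17 tested members of the streak list, 9 rose and 1 fell, beside 10.1% and 11.3% of all genes, with a median log2 fold change of 0.89 beside -0.04 over all genes. EOMES (minus strand of chromosome 3, 27715949 to 27722711) was at 8.67 and 9.20 CPM in vector and 32.1 and 21.5 in lncPRESS1. Both lncPRESS1 libraries were above both vector libraries, with a log2 fold change of 1.58 ± 0.20 (adjusted p = 0.000196), and the call held in all alternatives run. SP5, a zinc finger factor induced by Wnt, rose from 7.37 and 6.78 CPM to 54.7 and 18.5 (2.37 ± 0.39, adjusted p = 0.00108). EVX1, a homeobox factor of the posterior streak, was rarely read, at 0.0360 and 0.0387 CPM in vector and 0.476 and 0.482 in lncPRESS1 (3.60 ± 0.49, adjusted p = 0.000594). The calls of SP5 and EVX1 also held without any 1 of the 4 libraries.

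The other rises in the streak list were less secure. MIXL1, a homeobox factor of the streak, measured 23.8 and 29.3 CPM in vector and 90.2 and 42.0 in lncPRESS1 (1.32 ± 0.37, adjusted p = 0.0179). TBXT (brachyury), the streak's T-box factor, measured 2.99 and 2.40 CPM against 8.58 and 4.34 (1.26 ± 0.30, adjusted p = 0.00843). GSC, an organiser homeobox factor, measured 2.96 and 3.17 CPM against 7.42 and 3.94 (0.89 ± 0.30, adjusted p = 0.0427). In all 3, and in EOMES and SP5, lncPRESS1 a was well above lncPRESS1 b. The calls of MIXL1, TBXT and GSC were lost without vector a, without vector b or without lncPRESS1 a, as was that of APLNR, the apelin receptor (0.81, adjusted p = 0.0136). FGF8, a streak growth factor (1.11, adjusted p = 0.0434), and TBX6, a paraxial mesoderm factor and the only fall (-0.81, adjusted p = 0.0466), lost theirs whichever 1 of the 4 libraries was left out. Members rising in the list then numbered 3 without vector a, 4 without vector b, 3 without lncPRESS1 a and 9 without lncPRESS1 b. CER1, a secreted Nodal antagonist, at 28.2 and 26.3 CPM in vector and 51.3 and 35.7 in lncPRESS1, was not called (0.67 ± 0.24, adjusted p = 0.0517), nor was WNT3, at 32.8 and 35.1 CPM against 53.7 and 37.2 (adjusted p = 0.0824).

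The SP5 promoter is printed because SP5 was the streak gene with the highest rise after EVX1 and is also in the Wnt list. The 250 bases before its RefSeq start (GRCh38.p14, plus strand, chr2:170715087-170715336) hold 1 match to CTTTGAT, the core letters bound by TCF and LEF factors, which is in capitals.
SP5: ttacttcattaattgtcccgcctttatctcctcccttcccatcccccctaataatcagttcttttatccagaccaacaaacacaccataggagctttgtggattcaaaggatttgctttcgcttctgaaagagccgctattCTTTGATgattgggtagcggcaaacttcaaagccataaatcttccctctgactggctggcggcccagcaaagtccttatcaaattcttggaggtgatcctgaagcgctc
Both strands were searched, and 721 of the 27305 promoters in the table (2.64%; each 250 bases before to 50 after the start) hold these letters. Among promoters matched by symbol, 2 of 12 in the streak list (SP5 and MIXL1) and 1 of 10 in the Wnt target list held them. A match is a description of the letters, not a site of binding or a cause.

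Several endoderm factors rose too, at low levels. Of 18 tested members of the definitive endoderm list, 8 rose and 1 fell, beside 10.1% and 11.3% of all genes, and 9 were not called; the median was 0.76. The list shares EOMES, GSC, CER1 and LHX1 with the streak list. GATA4, a zinc finger factor of endoderm and heart, rose from 4.36 and 4.35 CPM to 14.3 and 11.1 (1.54 ± 0.25, adjusted p = 0.000862). GATA6, its relative of early endoderm, rose from 2.65 and 2.49 CPM to 5.73 and 5.39 (1.11 ± 0.20, adjusted p = 0.00176). OTX2, a homeobox factor of epiblast, anterior endoderm and forebrain, rose from 7.68 and 8.08 CPM to 16.9 and 22.5 (1.32 ± 0.18, adjusted p = 0.000357). These 3 calls held without any 1 of the 4 libraries. SOX17, which defines definitive endoderm, rose from 1.69 and 2.05 CPM to 4.72 and 4.58 (1.31 ± 0.33, adjusted p = 0.011), but not without vector a or without lncPRESS1 b. FOXA2, the other defining factor, measured 6.83 and 5.2 CPM against 10.2 and 7.42 and was not called (0.55 ± 0.28, adjusted p = 0.179). Members rising numbered 4 to 5 when single libraries were left out. CXCR4, a chemokine receptor (0.84, adjusted p = 0.0456), and the 1 fall, FLRT3 (-0.81, adjusted p = 0.0481), lost their calls whichever 1 of the 4 was left out.

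Among ligands of the Nodal and activin pathway, NODAL itself rose from 125 and 149 CPM to 356 and 257 (1.16 ± 0.28, adjusted p = 0.00826), a call lost without vector a or without lncPRESS1 a. GDF3, a ligand that acts with NODAL, rose by 0.74 (adjusted p = 0.0301), and its call was lost whichever 1 of the 4 libraries was left out. INHBE, which encodes an activin subunit, went the other way, from 35.6 and 24.8 CPM to 2.57 and 0.740 (-4.19 ± 0.56, adjusted p = 0.000253), and its call held without any 1 of them. Of the 9 ligands 2 thus rose (22.2%) and 1 fell (11.1%), beside 10.1% and 11.3% of all genes. The falls are near that share, and the other 6 ligands were not called.

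Of 9 receptors, cofactors and SMADs, 1 rose and 2 fell, which is near the shares over all genes (10.1% and 11.3%) and no result about the group. FOXH1, the DNA-binding partner of SMAD2 and SMAD3, measured 217 CPM in both lncPRESS1 libraries against 145 and 159.6 in vector (0.51 ± 0.15, adjusted p = 0.0236). ACVR2B, a type II activin receptor, measured 125 and 113 CPM against 164 and 152 (-0.41 ± 0.13, adjusted p = 0.0339). The calls of both were lost whichever 1 of the 4 libraries was left out. ACVR1C, a type I receptor also known as ALK7, fell from 2.68 and 2.18 CPM to 0.775 and 0.654 (-1.77 ± 0.47, adjusted p = 0.0145), but not without vector a, lncPRESS1 a or lncPRESS1 b.

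Antagonists and targets of the pathway rose in 5 of 14 tested cases and fell in 0, beside 10.1% and 11.3% of all genes, with a median of 0.59. FST, the secreted activin antagonist follistatin, rose from 10.1 and 8.47 CPM to 34.8 and 33.9 (1.88 ± 0.22, adjusted p = 0.000136). Its 2 groups were far apart in both libraries, and its call held without any 1 of the 4. LEFTY1, a Nodal antagonist that Nodal itself induces, was at 69.3 and 89.1 CPM in vector and 203 and 104 in lncPRESS1. Its groups did not overlap, yet lncPRESS1 a was far above b and the gene was not called (0.95 ± 0.39, adjusted p = 0.093). LEFTY2, at 26.2 and 29.4 CPM against 52.4 and 26.3, overlapped between the groups. Without vector a, vector b or lncPRESS1 a the list had 2 rises, and without lncPRESS1 b it had 5; with the 8 late libraries or no filter on low counts it had 8.

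**Figure D3:**
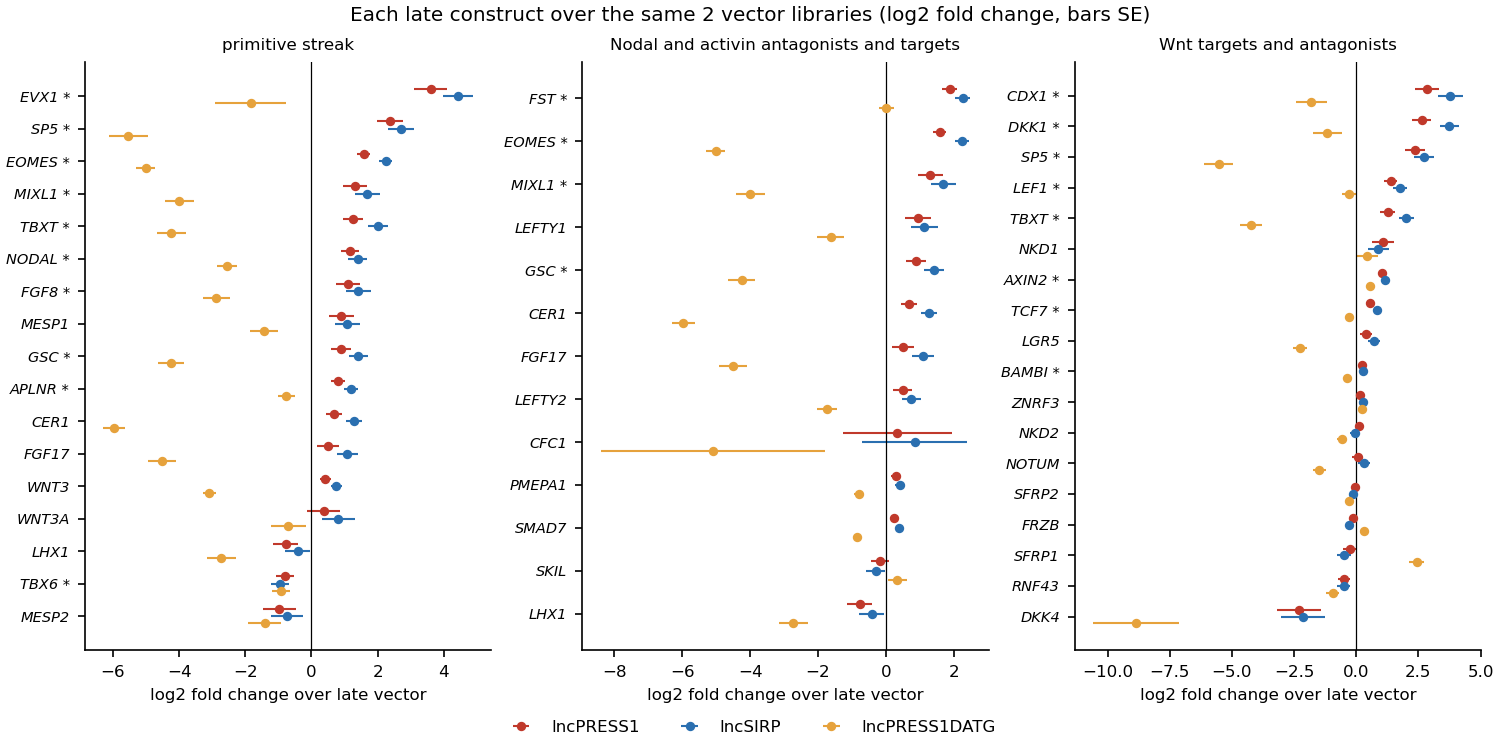
Log2 fold change over the same 2 late vector libraries, with SE as bars, of streak genes, Nodal and activin antagonists and targets, and Wnt targets, for late lncPRESS1, lncSIRP and lncPRESS1DATG; a star marks genes called in lncPRESS1, and 1 tested Nodal and activin target is not drawn. EOMES and SP5 are above 0 in lncPRESS1 and lncSIRP and below 0 in lncPRESS1DATG, whose streak list had 14 falls.

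Wnt targets and antagonists rose in 8 of 18 cases and fell in 0, beside 10.1% and 11.3% of all genes, with a median of 0.30. AXIN2, a general Wnt target that limits the pathway, rose from 31.6 and 32.1 CPM to 65.2 and 66.4 (1.05 ± 0.18, adjusted p = 0.00117). DKK1, a secreted Wnt antagonist, rose from 0.324 and 0.232 CPM to 1.57 and 1.91 (2.63 ± 0.39, adjusted p = 0.000549). CDX1, a caudal homeobox gene, rose from 0.144 and 0.425 CPM to 2.22 and 1.86 (2.84 ± 0.49, adjusted p = 0.00127). The calls of these 3 held without any 1 of the 4 libraries, as did that of SP5 above. LEF1, a DNA-binding partner of β-catenin, rose by 1.39 ± 0.27 (adjusted p = 0.00245), but not without vector a, and its relative TCF7 by 0.55 ± 0.16 (adjusted p = 0.0244), with a call that needed both vector libraries and lncPRESS1 a. The list had 4 rises without vector a, 5 without vector b, 5 without lncPRESS1 a and 7 without lncPRESS1 b.

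Of 19 Wnt ligands and receptors 4 rose and 4 fell, beside 10.1% and 11.3% of all genes. FZD10, a frizzled receptor, rose from 2.56 and 3.46 CPM to 11.1 and 8.20 (1.68 ± 0.21, adjusted p = 0.000196), and FZD8 from 9.64 and 10.6 to 21.8 and 18.3 (0.99 ± 0.18, adjusted p = 0.00179). FZD7, the frizzled receptor with the highest level of these 3 in vector, fell from 129.8 and 126 CPM to 67.4 and 72.6 (-0.87 ± 0.08, adjusted p = 2.36e-05). The calls of these 3 receptors held without any 1 of the 4 libraries. The ligands WNT8A (2.04, adjusted p = 0.0278) and WNT5B (0.71, adjusted p = 0.0301) and the coreceptor LRP6 (-0.41, adjusted p = 0.0451) lost their calls without vector a, vector b or lncPRESS1 a, and WNT5B and LRP6 also without lncPRESS1 b.

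Most genes of the integrated stress response list were lower in late lncPRESS1. Of its 16 tested genes 13 fell and 0 rose, against 11.3% of all genes that fell, and the median log2 fold change was -1.20. The summed level of the list was 3974 and 3444 CPM in vector and 2212 and 2106 in lncPRESS1. When single libraries were left out the list had 8 to 12 falls, fewest without lncPRESS1 b. ATF4 RNA, whose translation the response raises, measured 534 and 578 CPM in vector and 415 and 369.8 in lncPRESS1 (-0.50 ± 0.11, adjusted p = 0.00399), and its call was lost without lncPRESS1 b.

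Among the 13 genes that fell were several of amino acid metabolism and transport. ASNS, asparagine synthetase, fell from 237 and 152 CPM to 55.7 and 53.4 (-1.83 ± 0.26, adjusted p = 0.000432). PSAT1, of serine synthesis, fell from 622 and 469 CPM to 216 and 212 (-1.35 ± 0.24, adjusted p = 0.00148). SLC7A11, the cystine transporter, fell from 88.0 and 53.4 CPM to 8.34 and 8.78 (-3.05 ± 0.48, adjusted p = 0.000855). In each of the 3, vector a was above vector b and both were above both lncPRESS1 libraries. PHGDH, the first enzyme of serine synthesis, and MTHFD2, of mitochondrial folate metabolism, fell by 0.60 and 1.18 on the log2 scale.

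Of the stress factors and effectors, CHAC1, which degrades glutathione, fell from 124 and 111 CPM to 23.4 and 8.82 (-2.87 ± 0.36, adjusted p = 0.000196). SESN2, a stress-induced inhibitor of mTORC1 that is also in the p53 list, fell from 92.1 and 84.2 CPM to 31.1 and 23.6 (-1.69 ± 0.22, adjusted p = 0.000197). ATF3, a stress-induced factor, fell from 32.1 and 31.3 CPM to 14.0 and 11 (-1.34 ± 0.29, adjusted p = 0.00451), but not without lncPRESS1 b. ASNS, PSAT1, SLC7A11, PHGDH, MTHFD2, VLDLR, CHAC1 and SESN2 kept their calls without any 1 of the 4 libraries. DDIT3 (CHOP), at 7.86 and 4.95 CPM against 3 and 2.10 (-1.33 ± 0.43, adjusted p = 0.0379), lost its call without vector a, lncPRESS1 a or lncPRESS1 b. TRIB3, a pseudokinase that ATF4 and CHOP induce, measured 20.7 and 15.5 CPM against 11.8 and 8.85 and was not called (-0.81 ± 0.58, adjusted p = 0.341). ATF5 and SLC7A5 were not called either.

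Promoters of 3 of these genes are printed because they hold letters like those of the element that ATF4 binds with C/EBP partners. The letters searched were TGATGNAA on both strands, and the match is in capitals in each 250 bases before the RefSeq start (GRCh38.p14), ASNS on the minus strand (chr7:97872409-97872658), CHAC1 on the plus strand (chr15:40953221-40953470) and ATF3 on the plus strand (chr1:212565157-212565406).
ASNS: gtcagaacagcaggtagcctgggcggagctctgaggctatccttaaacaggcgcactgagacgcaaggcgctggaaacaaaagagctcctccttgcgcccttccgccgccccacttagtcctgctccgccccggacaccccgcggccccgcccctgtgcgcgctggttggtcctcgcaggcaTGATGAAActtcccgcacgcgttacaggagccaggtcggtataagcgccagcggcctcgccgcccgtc
CHAC1: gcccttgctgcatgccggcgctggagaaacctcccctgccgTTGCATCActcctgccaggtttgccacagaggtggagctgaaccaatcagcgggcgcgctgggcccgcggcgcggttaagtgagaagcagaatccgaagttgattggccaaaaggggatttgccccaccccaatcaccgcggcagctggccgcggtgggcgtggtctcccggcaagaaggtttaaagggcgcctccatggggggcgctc
ATF3: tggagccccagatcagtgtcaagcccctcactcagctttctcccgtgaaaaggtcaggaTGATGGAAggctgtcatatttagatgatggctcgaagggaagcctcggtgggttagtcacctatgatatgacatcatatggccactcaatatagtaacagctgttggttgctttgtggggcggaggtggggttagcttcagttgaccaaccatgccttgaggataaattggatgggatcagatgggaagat
The letters were in 3 of the 14 stress response promoters matched by symbol, which are these, and in 1003 of all 27305 (3.67%). In CHAC1 the match is on the other strand and so reads as its reverse complement. The match is a description of the letters only, and no match in the other 11 promoters says only that these letters are not in that window.

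**Figure D4:**
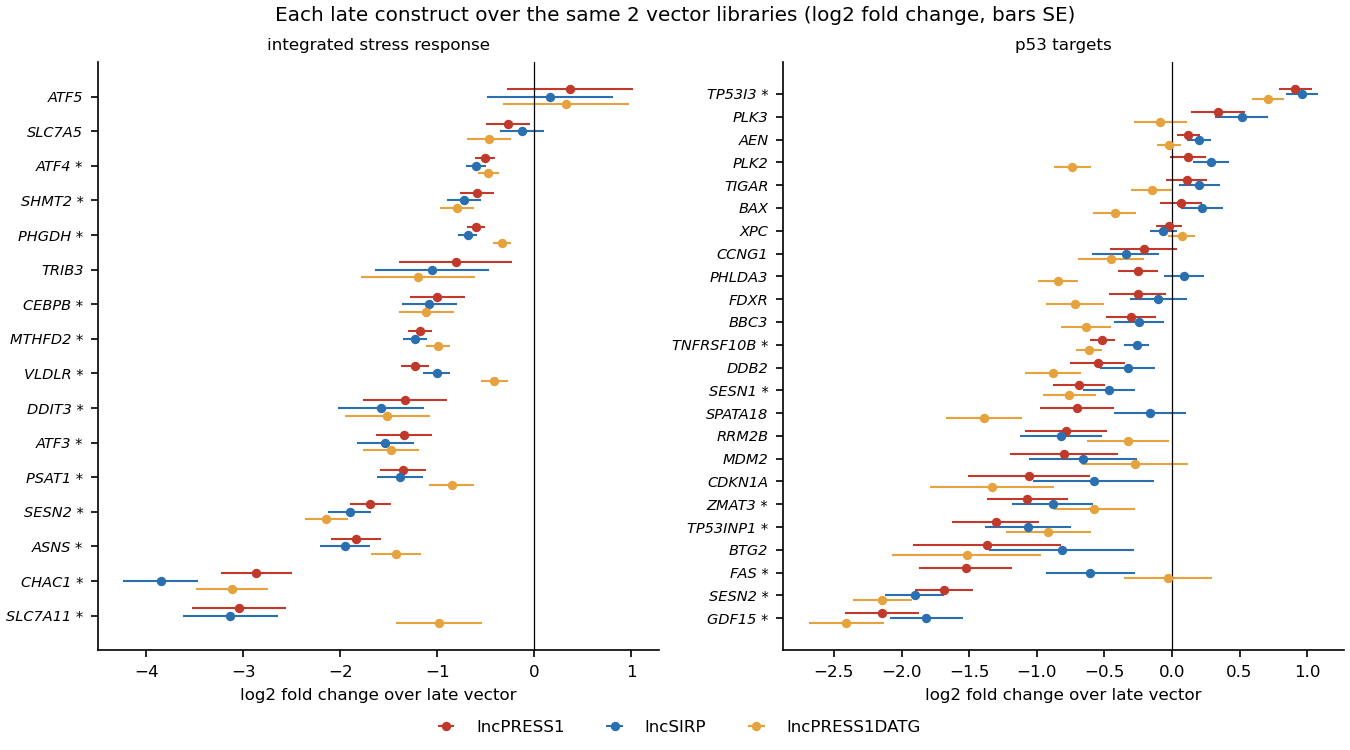
Log2 fold change over the same 2 late vector libraries, with SE as bars, of integrated stress response genes and p53 targets, for late lncPRESS1, lncSIRP and lncPRESS1DATG; a star marks genes called in lncPRESS1. ASNS, CHAC1 and SESN2 are below 0 in all 3 constructs.

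Of 24 tested targets of p53, 7 fell and 1 rose, beside 11.3% and 10.1% of all genes, with a median of -0.53. GDF15, a stress-induced cytokine that ATF4 also raises, fell from 8.81 and 6.15 CPM to 1.48 and 1.89 (-2.15 ± 0.27, adjusted p = 0.000196). TNFRSF10B, a death receptor, fell from 81.8 and 82.1 CPM to 59.3 and 55.5 (-0.51 ± 0.09, adjusted p = 0.00179), and TP53I3, a quinone oxidoreductase, rose from 17.2 and 17.9 to 30.1 and 36.0 (0.91 ± 0.12, adjusted p = 0.000246). These 3 calls held without any 1 of the 4 libraries. The best known targets were not called: CDKN1A (p21), the cell cycle inhibitor, measured 21.3 and 17.6 CPM against 9.62 and 9.06 (-1.06 ± 0.45, adjusted p = 0.105), and MDM2, the ubiquitin ligase of p53, 101 and 96.3 against 59.7 and 53.9 (-0.80 ± 0.40, adjusted p = 0.164). In both, all vector libraries were above all lncPRESS1 libraries. The list had 4 to 5 falls when single libraries were left out (4 without vector a or lncPRESS1 b, 5 without vector b or lncPRESS1 a), 13 with the 4 libraries alone, 15 with the 8 late ones, 17 with these and the replicate block, and 12 with no filter on low counts.

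Late lncPRESS1 and late lncPRESS1DATG, with like LNCPRESS1 RNA, differed in 5022 genes (21.6%), 2431 higher and 2591 lower in lncPRESS1. The count was 2725 without lncPRESS1 a, 2835 without lncPRESS1 b, 2535 without lncPRESS1DATG a and 2560 without lncPRESS1DATG b. The streak genes EOMES and SP5 and the endoderm gene GATA6 were near 0 in lncPRESS1DATG: EOMES was at 0.220 and 0.324 CPM, SP5 at 0.183 and 0.119, and GATA6 at 0.128 and 0.0512. MIXL1, at 1.76 and 1.57 CPM, was higher than these. Against these, lncPRESS1 was higher by 6.60 ± 0.28 for EOMES (adjusted p = 2.16e-10), 7.90 ± 0.59 for SP5 (adjusted p = 8.27e-08) and 5.94 ± 0.32 for GATA6 (adjusted p = 3.37e-09) on the log2 scale. Of the 17 streak genes 14 were higher in lncPRESS1 and 0 lower, beside 10.4% and 11.1% of all genes, with a median of 3.99. NODAL was at 24.4 and 22.2 CPM in lncPRESS1DATG, under its level in vector. OTX2, by contrast, had a like level with both constructs, 18.4 and 21.1 CPM in lncPRESS1DATG, and FST in lncPRESS1DATG, at 10.1 and 8.64 CPM, was near vector.

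The core pluripotency factors differed between these 2 constructs too, by smaller steps. POU5F1 was at 1812 and 1864 CPM in lncPRESS1DATG, and lncPRESS1 was higher by 0.43 ± 0.08 (adjusted p = 0.00101). NANOG was higher in lncPRESS1 by 0.53 ± 0.08 (adjusted p = 0.000118), and SOX2 was lower (-0.42 ± 0.14, adjusted p = 0.0438). COL1A1, a chain of type I collagen, was at 257 and 258 CPM in lncPRESS1DATG, 87.0 and 81.7 in vector and 44.2 and 45.1 in lncPRESS1. TEK, the angiopoietin receptor of endothelium, was at 41.6 and 41.9 CPM in lncPRESS1DATG, 10.0 and 10.5 in vector and 2.15 and 3.15 in lncPRESS1. FZD7 followed the same order, with 282 and 277 CPM in lncPRESS1DATG. The log2 difference of lncPRESS1 from lncPRESS1DATG was -2.53 for COL1A1 (adjusted p = 5.49e-08), -3.98 for TEK (adjusted p = 2.16e-10) and -2.0 for FZD7 (adjusted p = 2.16e-10). Of the 16 stress response genes 2 differed between the constructs, near the share of all genes lower in lncPRESS1 (11.1%): SLC7A11 (-2.07 ± 0.47, adjusted p = 0.0051) and VLDLR (-0.81 ± 0.14, adjusted p = 0.000666).

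Late lncPRESS1 and late lncSIRP, which differ in LNCPRESS1 RNA, were told apart by 22 genes (0.0944%), 7 higher and 15 lower in lncPRESS1, with 829 genes at an unadjusted p under 0.05. The DESeq2 Wald test called 67. Without 1 library the edgeR count was 9 (lncSIRP a), 10 (lncSIRP b), 12 (lncPRESS1 a) or 10 (lncPRESS1 b). EOMES was at 48.4 and 36.5 CPM in lncSIRP, above both lncPRESS1 libraries (-0.66 ± 0.19 for lncPRESS1 over lncSIRP, adjusted p = 0.665), and NODAL at 374 and 349. ASNS was at 49.5 and 51.3 CPM in lncSIRP and CHAC1 at 7.97 and 8.29. A p that misses the threshold does not show that the 2 constructs act alike.

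The genes that did differ between lncPRESS1 and lncSIRP ranged from nearly silent to well expressed in the lncPRESS1 cells. TRIM61, a tripartite motif gene, was at 0.194 and 0.344 CPM in late lncPRESS1, 5.43 and 6.16 in lncSIRP and 4.88 and 5.76 in vector (-4.41 ± 0.30 against lncSIRP, adjusted p = 9.62e-07). TRIM4, a ubiquitin ligase of the same family, was at 0.176 and 0.448 CPM against 6.02 and 5.17 in lncSIRP (adjusted p = 1.13e-06), and QPCT, glutaminyl cyclase, at 0.176 and 0.138 against 2.30 and 2.16 (adjusted p = 1.02e-05). BIRC5 (survivin) was lower, at 68.9 and 67.7 against 121 and 115 CPM (-0.79 ± 0.08, adjusted p = 5.44e-05). TPX2, a spindle factor, was lower too, at 134 and 131 against 213 and 217 CPM (-0.70, adjusted p = 0.000187). Of the 23 tested genes of the cell cycle list, which holds neither, 0 were higher and 0 lower than in lncSIRP. Their median was 0.003, and 0.0944% of all genes were called. H19, an imprinted lncRNA, was higher in lncPRESS1, at 14.1 and 20.2 CPM against 1.18 and 1.03 in lncSIRP (3.96 ± 0.43, adjusted p = 0.000175). SERPIND1, heparin cofactor II, had 0 counts in both late vector libraries and 160 and 133 counts in late lncPRESS1.

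The same genes marked other libraries at the early stage than the labels would pair with late lncPRESS1. TRIM61 was at 0.171 and 0.163 CPM in the middle libraries labelled lncPRESS1, but at 4.49 and 6.12 in the early ones, while the early libraries labelled lncSIRP had 0.230 and 0.276. QPCT was at 0.572 and 0.597 CPM in middle lncPRESS1, 4.15 and 4.50 in early lncPRESS1 and 0.674 and 0.276 in early lncSIRP. BIRC5 was at 74.2 and 73.5, 126 and 113, and 61.3 and 57.7 CPM in those 3 groups. LNCPRESS1 itself was high in the early libraries labelled lncSIRP, as given above, so in these 4 genes the early libraries labelled lncSIRP were nearer to late lncPRESS1 than those labelled lncPRESS1 were.

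Against the vector, which the 3 constructs share, the side-by-side values divide into 2 kinds. Each construct had more called genes against the vector than lncPRESS1 had against lncSIRP: 4998 for lncPRESS1 (21.5%), 4824 for lncSIRP (20.7%) and 4642 for lncPRESS1DATG (19.9%). Of the 16 stress response genes, 13 fell in lncPRESS1, 13 in lncSIRP and 11 in lncPRESS1DATG, and 0 rose in any of the 3; over all genes 11.3%, 10.7% and 10.9% fell. Of the 17 streak genes, 9 rose and 1 fell in lncPRESS1, 13 rose and 1 fell in lncSIRP, and 0 rose and 14 fell in lncPRESS1DATG; over all genes 10.1%, 9.98% and 9.04% rose. All these counts use the same 2 vector libraries, so a departure of those libraries would enter each of them.

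The effect of the construct at the late stage also differed from its effect at the other stages, with the limit on labels given above. The late effect differed from the early one in 1190 genes (5.11%; 597 higher, 593 lower), with 5126 at an unadjusted p under 0.05. That number moved with single libraries: without 1 late library it was 164 (vector a), 774 (lncPRESS1 a) or 264 (lncPRESS1 b), and without 1 early library 226 (vector a), 253 (vector b), 638 (lncPRESS1 a) or 2580 (lncPRESS1 b). At the early stage the libraries labelled lncPRESS1 differed from vector in 66 genes (0.283%). EOMES was at 3.73 and 3.59 CPM there against 6.22 and 7.22 in early vector, and the late effect exceeded the early one by 2.46 ± 0.29 (adjusted p = 0.000613). The late effect differed from the middle one in 9103 genes (39.1%). In middle lncPRESS1 POU5F1 was at 258 and 272 CPM and EOMES at 52.9 and 57.1. Middle vector had 2194 and 2329 CPM of POU5F1 and 9.78 and 7.94 of EOMES. Middle lncSIRP, with 304 and 294 CPM of POU5F1 and 48.4 and 56.5 of EOMES, was near middle lncPRESS1, so these levels were not particular to lncPRESS1. Middle lncPRESS1 and middle vector differed in 13387 genes (57.5%).

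Gene length went with the direction of change. Protein-coding genes whose log2 CPM averaged at least 1 were split by genomic span into 4 bins of like size. The share called higher was 27.8% in the shortest bin, then 20.4% and 13.0%, and 5.91% in the longest. The share called lower was 7.85%, 9.83%, 14.2% and 19.1%, and the median log2 fold change 0.18, 0.08, -0.02 and -0.12. Short genes include the cytosolic ribosomal proteins, of which 30 of 84 rose and 1 fell with a median of 0.25; without lncPRESS1 a 7 rose, without vector b 9, and without vector a or lncPRESS1 b 0. With the 4 libraries alone 66 rose, with the 8 late libraries 75, and with these and the replicate block 78. The 30 rises and 1 fall stand beside 10.1% and 11.3% of all genes in the fit on all 24 libraries. Over all genes 2358 rose in that fit and 3059 with the 4 libraries alone. With the 8 late libraries 3750 rose, and with the replicate block as well 4074. Calls over all genes also moved without 1 library, so the counts of ribosomal proteins under other settings do not stand beside these shares. Against lncSIRP the bin medians were all between -0.01 and 0.01, and against lncPRESS1DATG they went from 0.18 to -0.14. The part of length in the calls was not tested.

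**Figure D5:**
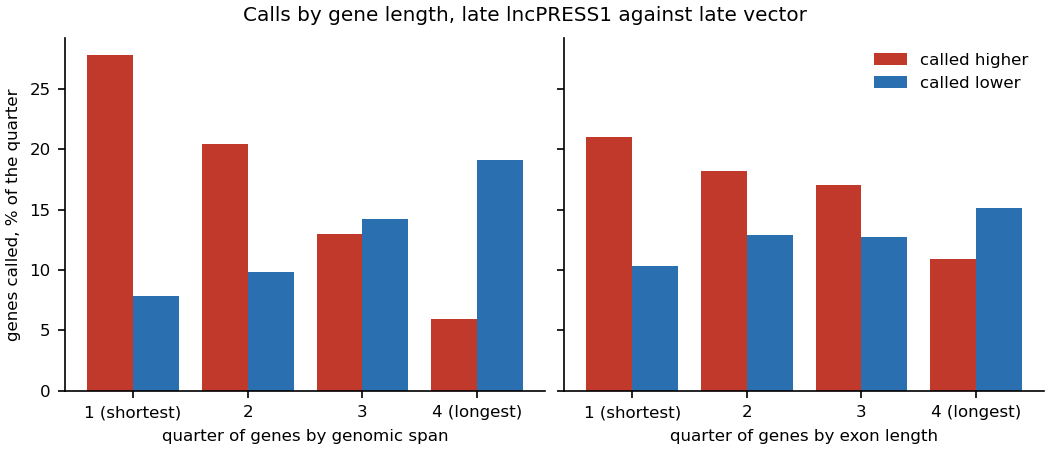
Share of protein-coding genes called higher and lower in late lncPRESS1 than in late vector (percent), by bin of genomic span (left) and of exon length (right). By span the share called higher goes from 27.8% in the shortest bin to 5.91% in the longest, and the share called lower from 7.85% to 19.1%.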

How the data were processed

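The deposited values are expected counts, estimated by the authors per gene with decimals for 62703 genes, in a table named as length scaled; per the labels, polyadenylated RNA was made into stranded libraries. The build was GRCh38, per the submitters' processing notes. No aligner, quantification tool or annotation is given in the sources used here. Positions come from GENCODE 29, which held 58279 of the identifiers, and promoters from RefSeq GRCh38.p14.

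Columns were matched to libraries by their descriptions and groups follow the titles. Counts were rounded and the 24 overexpression libraries fitted in R 4.3.3 with edgeR 4.0.16 as 12 groups with 12 residual degrees of freedom, after filterByExpr (23300 genes kept, at least 99.97% of the counts of each library) and TMM scaling (0.945 to 1.03 in the 4 libraries). Tests were quasi-likelihood F tests, two-sided, with Benjamini-Hochberg adjustment, called at adjusted p under 0.05; the SE is the log2 fold change divided by the square root of F. CPM uses scaled totals, with a prior count of 2 in logarithms. The pipeline was also run on simulated counts, with the same mean for a gene in all groups and changes only in late lncPRESS1. The real groups differ among themselves and in spread, so that run does not bear on the calls made here. DESeq2 1.42.0 and limma 3.58.1 served as alternatives, beside other filters, fits of fewer libraries, a replicate block and leaving out each library.

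The libraries compared, the 37 gene lists and the rule for naming genes were chosen with earlier results of these data known. The rule named LNCPRESS1 and its neighbours, EOMES, POU5F1, SOX2 and NANOG, the 12 called genes with the highest and the 12 with the lowest fold change, where log2 CPM averaged at least 1 and the groups did not overlap, and up to 2 called genes per direction of each list. Genes without a symbol, pseudogenes and near-identical families were passed over. Other members, and the genes that differ from lncSIRP, were chosen after their values were seen. Genes of the Y chromosome, and 2 genes that the rule named, are not reported here.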

Additional observations from a re-analysis of the deposited data

Results flagged for a closer look

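The effect of lncPRESS1 over vector differed between stages, by a test of the difference itself (the interaction of construct and stage in the edgeR fit). It differed between late and early in 1190 genes and between late and middle in 9103. The late stage was chosen as the one with LNCPRESS1 raised and POU5F1 high, so the values for these 2 genes describe that choice and support nothing further. For LNCPRESS1 the late effect was larger than the early one by 1.68 and than the middle one by 1.78 on the log2 scale. For EOMES it was larger than the early one by 2.46 and differed from the middle one by -1.05. The late effect was above the middle one by 3.26 for POU5F1, 6.09 for SOX2 and 5.13 for NANOG. In the middle libraries labelled lncPRESS1 SOX2 was at 3.28 and 4.07 CPM, against 203 and 260.0 in the late ones. Middle lncSIRP had 5.42 and 5.23 CPM of SOX2, so the low level was not particular to lncPRESS1. NANOG also differed between late and early, by 0.53. The early libraries labelled lncPRESS1 had LNCPRESS1, TRIM61, QPCT and BIRC5 near the levels of early vector, so the differences from the early stage rest on labels that these genes do not bear out.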

How the results depend on the processing

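The rise of LNCPRESS1, which was part of the choice of this stage, kept its direction and its side of the threshold in all alternatives run. That of EOMES did so too. Against vector, 4998 genes were called; leaving out 1 of the 4 libraries gave 1079 to 3380, the 4 libraries alone 6281, the 8 late libraries 7465, DESeq2 size factors 5055, the DESeq2 Wald test 5827, limma voom 5153 and no filter on low counts 5480. The share of called genes that were higher was 47.2%, and 39.3% without vector a. With a replicate block for the letter the count was 5084 in the 24 libraries and 8109 in the 8 late ones. The differences b minus a correlated at 0.143 to 0.309 over the 6 pairs of late groups, but with only 2 letters and no label naming a shared batch the pairing is not established.

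Against lncPRESS1DATG the count of 5022 became 7936 in the 8 late libraries with the replicate block, and 2535 to 2835 without 1 library. Against lncSIRP the count of 22 became 67 by the DESeq2 Wald test, 263 with no filter on low counts, 44 in the 8 late libraries, 39 in these with the replicate block, and 9 to 12 without 1 library. The late minus early count of 1190 became 2396 by the Wald test, 2301 with no filter and 164 to 2580 without 1 library. The late minus middle count of 9103 was 7704 to 7900 without 1 library. The cause of these shifts was not tested.

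Of the 112 named genes called besides LNCPRESS1, 64 lost their call without vector a, 32 without vector b, 38 without lncPRESS1 a and 57 without lncPRESS1 b, and 1 to 7 under the other alternatives; none reversed. Reversed values were AZGP1P2, a pseudogene beside LNCPRESS1 that was not called (1.34 without vector a, -1.24 without vector b), and SOX2 (0.14 without lncPRESS1 a, -0.22 without lncPRESS1 b). With 2 libraries a group, changes near the threshold rest on single libraries.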

Other observations

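Other gene groups moved less uniformly. Over all genes 10.1% rose and 11.3% fell, and the counts below from the fit on all 24 libraries stand beside these shares. Counts under other settings do not, since the calls over all genes moved as well. In the pluripotency network 10 of 26 genes rose and 3 fell in late lncPRESS1, with a median log2 fold change of 0.17, and 2 rose without vector a, 7 without vector b, 6 without lncPRESS1 a and 3 without lncPRESS1 b. ZFP42 (REX1), a factor of early embryonic cells, rose from 176 and 202 CPM to 224 and 265 (0.37 ± 0.10, edgeR adjusted p = 0.014), but not without vector a or without lncPRESS1 b. Heat shock genes rose in 4 of 12 cases. These include HSPA1A and HSPA1B, which are near identical and may share reads, so their calls may not be separate. The rises numbered 1 without vector a, 2 without lncPRESS1 b, 7 with the 4 libraries alone or no filter on low counts and 9 with the 8 late libraries. DNAJB1, a cochaperone of HSP70, rose from 45.9 and 55.6 CPM to 85.1 and 90.3 (0.79 ± 0.12, adjusted p = 0.000788) and held without any 1 library. HSPA8, a constitutive HSP70, rose from 731 and 1183 CPM to 2001 and 2671 (1.29 ± 0.33, adjusted p = 0.0123), but not without vector a or without lncPRESS1 b. BMP targets rose in 6 of 14 cases, among them ID2 (0.70, adjusted p = 0.00939), and 0 rose without vector a, 1 without vector b, and 2 without lncPRESS1 a or without lncPRESS1 b. YAP targets fell in 6 of 12 cases, in 3 without vector a, in 4 without vector b or lncPRESS1 a, and in 8 with the 8 late libraries, with AXL, a receptor kinase, at 26.0 and 26.7 CPM in vector and 17.3 and 19.5 in lncPRESS1 (-0.52 ± 0.11, adjusted p = 0.00374).

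Imprinted genes changed in both directions, with 6 of 20 rising and 2 falling, the falls near the share over all genes. Without vector a or without lncPRESS1 b 3 rose and 1 fell, and without vector b 4 rose. H19 rose from 3.93 and 3.73 CPM to 14.1 and 20.2 (2.16 ± 0.37, adjusted p = 0.00127), and CDKN1C, a growth inhibitor of the neighbouring cluster, from 24.5 and 26.9 CPM to 52.6 and 47.8 (0.96 ± 0.18, adjusted p = 0.002). MEG3, the lncRNA of the DLK1 cluster, was at 1.05 and 1.80 CPM in vector and at 0.0176 and 0 in lncPRESS1, and it was also at or near 0 in late lncSIRP (0.0203 and 0) and late lncPRESS1DATG (0 and 0.0171). DDIT4, an mTORC1 inhibitor raised by hypoxia and stress, fell from 262 and 198 CPM to 94.8 and 29.9 (-1.88 ± 0.37, adjusted p = 0.00279). In the cell cycle list 5 of 23 tested genes rose, 1 fell and 17 were not called, beside 10.1% and 11.3% of all genes. Among the rises were the replication licensing genes MCM2 (0.55 ± 0.09, adjusted p = 0.001) and MCM5 (0.65 ± 0.11, adjusted p = 0.00117). MCM3 and MCM6, of the same family, were not called. HES1, a Notch target, rose from 12.3 and 10.6 CPM to 24.5 and 20.8 (0.99 ± 0.21, adjusted p = 0.00476). FN1, fibronectin, rose from 257 and 255 CPM to 417 and 429.9 (0.73 ± 0.11, adjusted p = 0.000602), while the fibroblast markers DCN and LUM were at 0 in all 4 libraries and 6 of the 15 genes of that list fell (2 without vector a or without lncPRESS1 b, 3 without vector b).

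Medians of the log2 fold change by chromosome ran from -0.22 on chromosome 13 to 0.19 on chromosome 16 over 23 chromosomes, and from -0.02 to 0.01 between lncPRESS1 and lncSIRP. Protein-coding genes were called in 25.9% of cases and lincRNA genes in 12.6%, and the lincRNA genes had a median of -0.34.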
